A study of Mus musculus with 2 samples.

Results

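The suppressor of cytokine signalling (SOCS) family comprises 8 genes in the mouse, Socs1 to Socs7 and Cish, taken here by symbol from 55536 annotated genes. All 8 were found, and 6 of the 8 had a mean level of 1 TPM or more, as 12952 genes did. TPM divides reads by transcript length and scales each library to the same sum, so levels of different genes can be set side by side. The RNA was total nuclear RNA, depleted of ribosomal RNA, of macrophages grown in culture from bone marrow of C57BL/6J mice, though the labels name the fraction nuclear in one field and nucleoplasmic in another. The cells of both libraries had received Lipid A at 100 ng/ml, the bacterial endotoxin moiety sensed by TLR4, for 12 hours, had been kept without it for another 12 hours, and had then met the same dose again for 20 minutes. Replicate 2 was made from 500 ng of RNA and replicate 1 from 1 µg, so input and replicate cannot be told apart. Sex and age were not collected, both libraries carry 1 donor label, and no label says whether the cultures came from separate animals. There was 1 treatment group and no unstimulated library, so no value below measures a response to Lipid A.

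SOCS proteins restrain cytokine receptors that signal through JAK kinases and STAT transcription factors. Each has an SH2 domain, which binds phosphorylated tyrosines of receptors or kinases, and a SOCS box, which recruits an elongin and cullin ubiquitin ligase. Several of the genes are themselves STAT targets, which makes the family a textbook negative feedback loop, and in macrophages Socs1 is known for limiting interferon responses and Socs3 for limiting responses to IL-6.

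Depth over all genes was 17739520 expected counts for replicate 2 and 21954179 for replicate 1. All 8 macrophage markers had means of 60.47 TPM or more, while the summed level of every other marker list (neutrophil, dendritic, lymphoid, stromal, erythroid and mast cell) stayed at 3.24 TPM or less in replicate 2 and 2.34 TPM or less in replicate 1, with Ly6g, Cd3e and Col3a1 at 0. A check for a single library deposited again gave a chi-square of 91.3 per degree of freedom over 14347 genes, so they were counted as separate libraries. Mitochondrial mRNAs held 6.32% of the counts in replicate 2 and 3.45% in replicate 1.

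The promoters shown are those of the 3 members with motif matches, so the matches themselves were the basis of the choice. These 3 genes are also known cytokine-induced members of the family. The RefSeq table of promoters (GRCm38.p6; 250 bases before to 50 bases after the gene start) held 4 of the 8 members. The search covered both strands for 3 motifs: the STAT-type TTCNNNGAA, the interferon-response type GAAANNGAAA and an NF-kB motif. Capitals mark the matches, and each sequence runs 5′ to 3′ on the strand of its gene.

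Socs1, chr16:10785487-10785786, minus strand: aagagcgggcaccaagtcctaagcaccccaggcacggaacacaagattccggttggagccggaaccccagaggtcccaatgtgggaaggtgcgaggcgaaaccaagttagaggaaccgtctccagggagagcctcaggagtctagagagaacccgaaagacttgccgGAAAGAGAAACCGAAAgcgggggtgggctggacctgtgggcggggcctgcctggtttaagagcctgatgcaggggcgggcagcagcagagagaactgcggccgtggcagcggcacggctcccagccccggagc

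Socs3, chr11:117969317-117969616, minus strand: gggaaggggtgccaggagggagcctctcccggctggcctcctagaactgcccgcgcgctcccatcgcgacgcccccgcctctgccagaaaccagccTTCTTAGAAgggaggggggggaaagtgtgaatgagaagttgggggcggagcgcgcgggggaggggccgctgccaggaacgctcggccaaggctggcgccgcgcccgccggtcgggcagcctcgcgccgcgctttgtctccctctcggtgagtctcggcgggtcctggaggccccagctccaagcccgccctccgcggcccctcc

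Cish, chr9:107296409-107296708, plus strand: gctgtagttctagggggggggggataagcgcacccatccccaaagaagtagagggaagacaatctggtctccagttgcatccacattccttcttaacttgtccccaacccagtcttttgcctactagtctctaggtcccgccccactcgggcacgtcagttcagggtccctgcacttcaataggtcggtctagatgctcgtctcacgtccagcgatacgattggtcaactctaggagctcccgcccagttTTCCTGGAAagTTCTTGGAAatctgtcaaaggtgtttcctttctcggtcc

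In the Socs1 promoter 2 overlapping interferon-response-type matches began at -83 and -77, where 0 is the first base of the gene in RefSeq. Such a match was present in 3.43% of 32817 promoters, and 2 or more were present in 0.222%. The Socs3 promoter had 1 STAT-type match, at -154, and the Cish promoter had 2, at 0 and 11. A STAT-type match was present in 8.29% of the promoters and 2 or more in 0.457%. RefSeq starts Socs3 at 117969366 and Cish at 107296659, while the annotation of the tables starts Socs3-201 at 117969186 and Cish at 107296026. The transcript Cish-202, to which most Cish reads were assigned, starts at 107296907, after the matches. The fourth promoter, that of Socs4, held none of the motifs in this window. The NF-kB motif, present in 8.46% of promoters, matched in none of these 4, and the other members were not searched. GC content was 63.33% for Socs1, 73.33% for Socs3, 53.33% for Cish and 70.67% for Socs4. The matches are descriptions of the letters and were not tested as binding sites.

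Socs3 had the highest mean level of the family, and Socs2 and Cish the lowest. By mean TPM over the 2 libraries the order was Socs3, Socs4, Socs6, Socs5, Socs1, Socs7, Cish and Socs2. The ranges over the libraries did not overlap between Socs3 and Socs4, between Socs6 and Socs5, or between Socs7 and Cish. They overlapped between Socs4 and Socs6, Socs5 and Socs1, Socs1 and Socs7, and Cish and Socs2, so the order within these pairs is not beyond the spread between libraries. The median over all 8 members, which includes Cish and Socs2 below 1 TPM, was 5.94 TPM. The median gene with a mean of 1 TPM or more had 6.935 TPM, but that set leaves out such low genes, so the 2 medians are not like for like. Socs3 was above 86.33% of those genes in level, Socs4 above 70.88%, Socs6 above 70.44% and Socs5 above 50.36%, while Socs1 was above 39.79% and Socs7 above 36.57%. With nuclear RNA in bulk, fewer cells transcribing a gene and less RNA per cell cannot be told apart.

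The order was not the same in the 2 libraries. In replicate 2 Socs6 ranked 1, Socs3 2 and Socs4 3, and Socs1 ranked 6 of the 8. In replicate 1 Socs3 ranked 1, Socs4 2 and Socs6 3, and Socs1 ranked 4. Summed over the family, levels came to 73.11 TPM in replicate 2, against 82.82 TPM in replicate 1. The makeup of that sum differed more than its size: Socs1 and Socs3 together held 28.3% of it in replicate 2 and 61.9% in replicate 1. Of the family's 6553 and 8273 expected counts in replicates 2 and 1, the same pair held 15.2% and 44.0%.

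**Figure D1:**
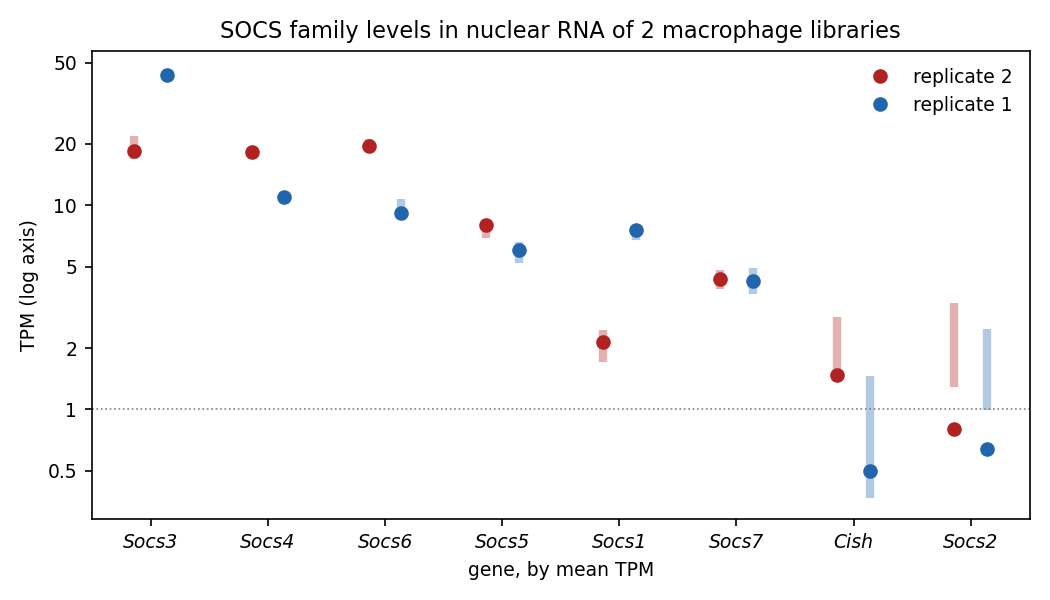
Level of each SOCS gene in TPM (log axis) in replicate 2 (red) and replicate 1 (blue), ordered by mean; shaded bars run between the lower and upper TPM bounds deposited for each gene, and the dotted line marks 1 TPM. Socs3 and Socs1 lie lower in replicate 2, at 18.54 and 2.15 TPM, against 43.68 and 7.58 TPM in replicate 1, while Socs4 and Socs6 lie higher in replicate 2.

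Socs1 and Socs3 differed by over 2-fold between the libraries in centred TPM, and both were lower in replicate 2. No other member did on that scale. In the log2 ratio of CPM, taken without pseudocount or centring, Cish and Socs6 (1.06) were over 2-fold higher. Socs6 was also past 2-fold in TPM before centring (1.02). Socs1 and Socs3 encode the members with a kinase inhibitory region, a short stretch that blocks the catalytic site of JAK kinases. The difference used here is the log2 ratio of TPM + 1 in replicate 2 to TPM + 1 in replicate 1, less its median over the 12952 genes at 1 TPM or more, which was 0.29. With 1 library on each side no test of a difference is possible, and the difference has no replicate check. Over 2-fold is a description. By it 4.51% of the 12952 genes were lower (584) and 2.78% higher (360) in replicate 2. Without centring 330 were lower and 919 higher. Among the 11145 of them with 100 counts or more in the 2 libraries together, 3.02% were lower and 1.71% higher.

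Socs1 (ENSMUSG00000038037.5, mm10 chromosome 16, 10782240 to 10785536, minus strand) had 2.15 TPM in replicate 2, against 7.58 TPM in replicate 1, from 113 and 591 expected counts. Its mean was 4.87 ± 3.84 TPM (SD, n = 2). The deposited TPM bounds were 1.70 to 2.46 in replicate 2 and 6.75 to 7.94 in replicate 1 and did not overlap. After centring, Socs1 was 3.33-fold lower in replicate 2, a log2 difference of -1.73, and 1.475% of the tested genes (191) were lower still. In CPM, counts scaled to library total and not divided by length, the log2 ratio was -2.08, with an exact 95% binomial interval of -2.38 to -1.79. That interval, like the others below, covers counting error only, as reads are not independent molecules.

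Socs3 (ENSMUSG00000053113.3, chromosome 11, 117966079 to 117970047, minus strand) had 18.54 TPM in replicate 2, against 43.68 TPM in replicate 1, from 886 and 3050 expected counts. Its mean was 31.1 ± 17.8 TPM (SD, n = 2). Deposited bounds of 17.0 to 21.8 TPM in replicate 2 and 41.0 to 45.0 TPM in replicate 1 did not overlap. The log2 difference was -1.48, or 2.79-fold lower in replicate 2, and 1.992% of the tested genes (258) were lower still. The log2 ratio of CPM was also -1.48, with an interval of -1.59 to -1.37. The ratio of Socs3 to Socs1 was 8.62 in replicate 2 and 5.76 in replicate 1, both in TPM, and that of Socs3 to Socs4 was 1.02 and 3.99.

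In the second transcript table, which the text files deposited with the samples list as derived from the read files, the pair was again lower in replicate 2 after centring, at -1.66 for Socs1 and -1.01 for Socs3. Before centring, Socs1 stood there at 1.15 TPM in replicate 2, against 1.80 TPM in replicate 1, and Socs3 at 13.4 TPM and 10.9 TPM. Socs3 was thus higher in replicate 2 in that table's own TPM. The median gene of that table was itself 1.28 higher in replicate 2 on the log2 scale, against 0.29 in the gene tables. Counts in it were lower in replicate 2 for both genes, at 163 and 649 for Socs1 and 1309 and 3297 for Socs3.

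The genes nearest to Socs1 in level in both libraries, among 9842 protein-coding genes with at least 100 counts, were AW011738, Heatr9 and Gm16867. Distance was Euclidean on log2(TPM + 1) over the 2 libraries and was 0.122, 0.154 and 0.228. AW011738 had 2.01 TPM in replicate 2, against 6.99 TPM in replicate 1. For Socs3 the nearest were Slc2a6 (0.125), a sugar transporter gene, Itgal (0.149), which encodes an integrin chain of leukocytes, and Nr1h3 (0.187), which encodes a nuclear receptor for oxysterols. Slc2a6 had 18.3 TPM in replicate 2, against 47.69 TPM in replicate 1. Over 2 libraries such likeness describes a level and a difference only.

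Cish and Socs2, the members best known for limiting signalling through STAT5, including that of growth hormone, had the lowest levels of the family. Cish (ENSMUSG00000032578.7, chromosome 9, 107296026 to 107302784, plus strand) had 1.48 TPM in replicate 2, against 0.50 TPM in replicate 1, from 134 and 39 expected counts. Its mean of 0.99 ± 0.693 TPM (SD, n = 2) was just under the filter of 1 TPM. The deposited bounds of 1.36 to 2.84 TPM in replicate 2 and 0.370 to 1.47 TPM in replicate 1 overlapped. Its log2 difference was 0.44 in TPM, 0.73 without centring and 1.06 with a pseudocount of 0.1. In CPM, without pseudocount or centring, it was 2.09, with an interval of 1.56 to 2.64. The pseudocount of 1 and the centring thus lowered the TPM value. The second table gave -0.40 after centring, though its own TPM was higher in replicate 2, at 1.08, against 0.132 in replicate 1. Counts there were 247 in replicate 2 and 49.4 in replicate 1. The deposited effective length of the gene was 4433 bases in replicate 2 and 2592 in replicate 1, and the transcripts to which its reads were assigned differed as well, as given with the isoforms. Gm17041 and Gm17040 overlap Cish on the opposite strand, and both had 0 counts in both libraries.

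Socs2 (ENSMUSG00000020027.18, chromosome 10, 95385362 to 95417180, minus strand) had 0.80 TPM in replicate 2, against 0.64 TPM in replicate 1, from 32 and 30 counts. Its mean was 0.72 ± 0.113 TPM (SD, n = 2), with a log2 difference of -0.15 (0.13 without centring). In CPM the log2 ratio was 0.40, and its interval of -0.36 to 1.17 included 0, so no difference was detectable at this depth. The posterior mean TPM in the same tables was 2.24 in replicate 2 and 1.69 in replicate 1, and the TPM lay under its own deposited lower bound in both libraries, 1.29 and 0.992. The level of Socs2 therefore depended on the estimate read. A gene with 0 counts could still have reached 0.169 CPM in replicate 2 and 0.137 CPM in replicate 1 (3 counts), and both Socs2 and Cish were above these limits in each library.

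The other 4 members, Socs4 to Socs7, have long N-terminal regions and lack the kinase inhibitory region. Socs4 and Socs5 are best known for acting on the epidermal growth factor receptor, and Socs6 and Socs7 for binding insulin receptor substrates or receptor tyrosine kinases. All 4 were within 2-fold between the libraries after centring. Socs4 (ENSMUSG00000048379.9, chromosome 14, 47276931 to 47296102, plus strand) had 18.23 TPM in replicate 2, against 10.94 TPM in replicate 1, from 2486 and 2182 counts. The mean was 14.6 ± 5.15 TPM (SD, n = 2), and deposited bounds of 16.8 to 18.4 and 10.2 to 11.6 TPM did not overlap. The log2 difference was 0.40 in TPM and 0.50 in CPM (interval 0.41 to 0.58). Socs4 was thus higher in replicate 2, by less than 2-fold.

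Socs5 (ENSMUSG00000037104.9, chromosome 17, 87107679 to 87137839, plus strand) had 7.99 TPM in replicate 2, against 6.05 TPM in replicate 1, from 534 and 564 counts. Its mean was 7.02 ± 1.37 TPM (SD, n = 2) and its log2 difference was 0.06 (-0.19 in the second table, also after centring), close to the median gene. The log2 ratio of CPM, which is not centred, was 0.23, with an interval of 0.06 to 0.40 that excluded 0. Socs7 (ENSMUSG00000038485.5, chromosome 11, 97362551 to 97398542, plus strand) had the most even TPM of the 8, at 4.37 in replicate 2 and 4.27 in replicate 1, from 608 and 774 counts. Its mean was 4.32 ± 0.0707 TPM (SD, n = 2) and its log2 difference was -0.26 (0.03 without centring), as the median gene was higher in replicate 2. In CPM its log2 ratio was -0.04, and the interval of -0.20 to 0.11 included 0.

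Socs6 (ENSMUSG00000056153.15, chromosome 18, 88665224 to 88927481, minus strand) had a log2 difference of 0.73, the largest positive one of the 8 members with a pseudocount of 1, though not with one of 0.1, where Cish was at 1.06 and Socs6 at 0.74. It had 19.55 TPM in replicate 2, against 9.16 TPM in replicate 1, from 1760 and 1043 counts, with a mean of 14.4 ± 7.35 TPM (SD, n = 2). Deposited bounds of 18.3 to 21.2 TPM in replicate 2 and 8.61 to 10.7 TPM in replicate 1 did not overlap. Without centring its difference was 1.02, just over 2-fold. The annotated span of Socs6 holds 3 processed pseudogenes, which had 0 to 6 counts in each library.

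Set against the other 6 members, Socs1 and Socs3 had a median log2 difference of -1.61, and the other 6 had a median of 0.23 and a range of -0.26 to 0.73. The contrast between these medians was -1.84. Gene filters and centring shift all members alike and cannot move this contrast. With other pseudocounts, CPM with or without TMM scaling, posterior means or the second table it was -2.08 to -1.04, and the pair lay below the other 6 in each. The pair was named for the comparison with its values in these libraries known, so the contrast is a description.

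**Figure D2:**
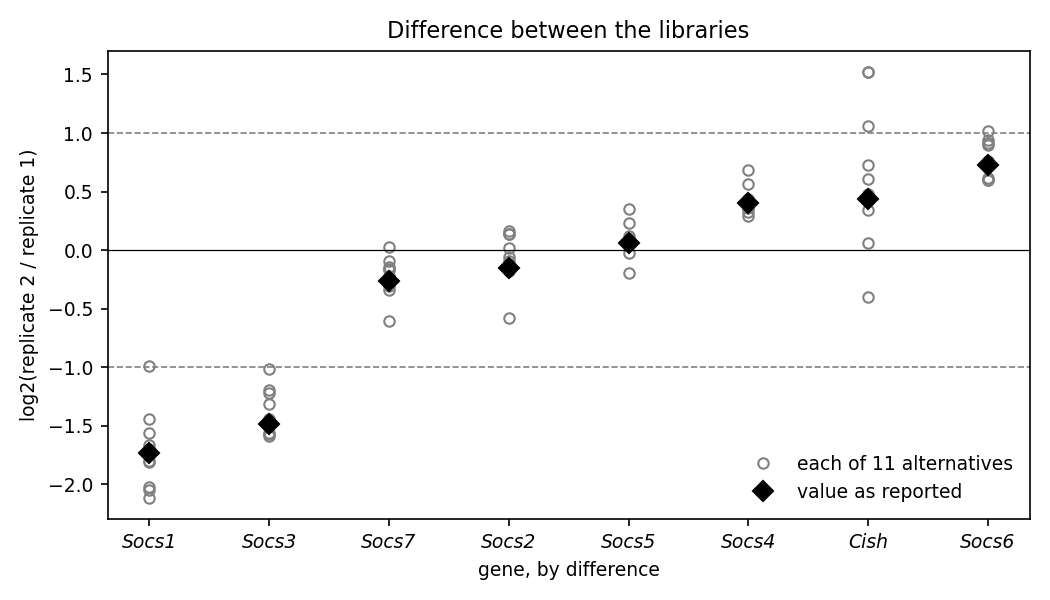
Log2 difference of replicate 2 over replicate 1 for each SOCS gene as reported (black diamonds) and under each of 11 alternative ways of computing it (open circles); dashed lines mark 2-fold. Socs1 and Socs3, at -1.73 and -1.48, lie below all other members, and Cish had the widest range, -0.40 to 1.52.

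The 2 lower members are also the 2 shortest genes of the family by annotated span, 3297 bases for Socs1 and 3969 for Socs3. Their main coding transcripts have 509 and 556 bases of intron, against 12295 for Socs4, 23118 for Socs6, 25513 for Socs5 and 28977 for Socs7. The main coding transcripts of Socs2 (1842 bases of intron) and Cish (3229) are short as well, on few reads, and these 2 members were not lower by over 2-fold. The median over 8864 genes was 17769.5 bases, and 5.71% had under 1000. Span moved with the difference across protein-coding genes. The 1108 genes under 5 kb had a median difference of -0.31, and 10.4% of them were lower in replicate 2 by over 2-fold. From 5 to 20 kb the median was -0.15 and 3.78% were lower, from 20 to 50 kb 0.04 and 1.46%, and at 50 kb or more 0.12 and 0.844%. Within the genes under 5 kb, 2.08% were lower than Socs1 and 4.51% lower than Socs3. The part of gene span in the difference of the pair was not tested beyond these values.

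Genes with under 1000 intron bases (613) had a median difference of -0.27 and 12.7% lower over 2-fold, against -0.02 and 2.42% for the 9438 with more. The coding sequence lies in 1 exon in Socs1, Socs3, Socs4, Socs5 and Socs6, which holds for 6.28% of genes, in 2 exons in Socs2 and in 9 in Socs7. Genes with 1 coding exon (664) had a median difference of -0.12 and 8.58% lower over 2-fold, against -0.03 and 2.65% for the 9387 with more. A single coding exon was shared by the pair and by 3 members that were within 2-fold after centring. Its part in the difference was not tested. AU-rich pentamers, ATTTA, known as marks of unstable mRNA, occurred 4 times in the 3′ UTR of Socs3 (2.71 per kb) and 0 times in that of Socs1. They occurred 17 times in Socs4 (3.28 per kb) and 10 times in Socs6 (2.49 per kb), and the median gene had 1.34 per kb. The pair differed in this count, whose part in the difference was not tested either.

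**Figure D3:**
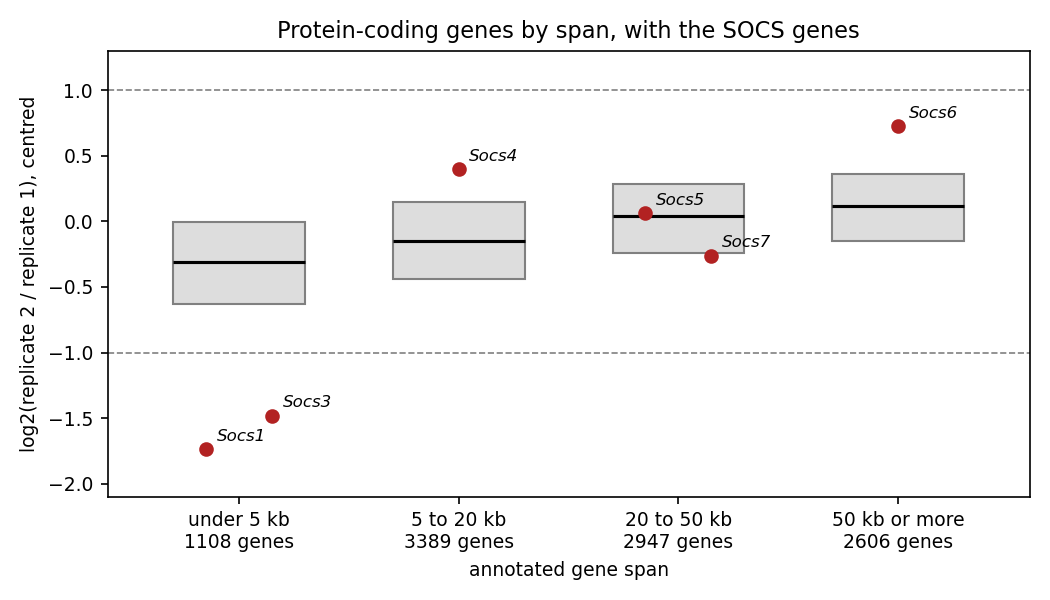
Log2 difference of replicate 2 over replicate 1, centred, for protein-coding genes grouped by annotated span; boxes run from the lower to the upper quartile with the median as a line, and red points are the SOCS genes at 1 TPM or more. Socs1 and Socs3 lie below the box of genes under 5 kb, whose median was -0.31. Socs7 lies just below the box of its class, and Socs4 and Socs6 lie above theirs. Socs6 is placed by the span of the whole gene, 262258 bases, while its main coding transcript spans 29154.

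Nearly all signal of Socs3 and Socs4 lay in 1 coding transcript each. Socs3-201 held 100% of the Socs3 signal in replicate 2 and 99.71% in replicate 1, and Socs4-201 held 100% in both, by the deposited isoform percent, which divides each transcript's TPM by that of the whole gene. In the second table Socs3-203, a noncoding transcript of 246 bases, held 23.0% in replicate 2 and 4.09% in replicate 1, on 13.8 and 5.45 counts. Short transcripts take a large share of TPM on few reads, and the same holds for several transcripts below.

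Socs1 has 2 annotated transcripts, both coding and 2785 and 2908 bases long. Socs1-201 held 100% in replicate 2 and 72.30% in replicate 1, and Socs1-202 held 0% and 27.70%, on 0 and 169.27 counts. The second table placed Socs1 reads on both transcripts in both libraries, with 62.4% on Socs1-202 in replicate 2 and 55.3% in replicate 1. An isoform change of Socs1 between the libraries was therefore present in one table and not in the other.

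Cish differed most between the libraries in the share held by coding transcripts. Cish-202, a transcript annotated as noncoding that keeps most intron sequence (4697 bases, 93.25% of its span in exons), held 97.49% in replicate 2 and 42.83% in replicate 1, on 132.01 and 28.90 counts. Coding transcripts of Cish held 2.51% in replicate 2 and 57.18% in replicate 1. Of the coding ones, Cish-203, only 411 bases long, had 0% in replicate 2 and 33.27% in replicate 1, the last on 1.00 count, and Cish-204 had 0% and 23.91%, on 0 and 9.10 counts. By counts, most Cish reads in both libraries were thus assigned to Cish-202. In the second table Cish-202 held 88.5% in replicate 2 and 49.9% in replicate 1.

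Socs2 has 14 annotated transcripts and few reads. Socs2-214 held 83.69% in replicate 2 and 7.59% in replicate 1, on 26.47 and 2.82 counts, while Socs2-201 held 0% and 43.51%, on 0 and 16.74 counts. Socs2-210 and Socs2-212, both noncoding, held 0% in replicate 2 and 19.56% and 17.33% in replicate 1, on 1.00 and 2.26 counts. These shares rest on too few reads to give a makeup.

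By isoform percent, Socs5, Socs6 and Socs7 differed less between the libraries than Cish and Socs2 did. Socs5-201 held 61.39% in replicate 2 and 57.93% in replicate 1, the noncoding Socs5-202 24.09% and 21.40%, and the coding Socs5-203 14.52% and 20.68%. Socs6-201 held 56.84% in replicate 2 and 38.40% in replicate 1, Socs6-203 36.72% and 47.67%, and Socs6-202 0% and 10.33%, all 3 coding. Socs7-201 held 100% in replicate 2 and 88.61% in replicate 1, and the noncoding Socs7-202 of 506 bases held 0% and 11.39%, on 0 and 4.27 counts. In the second table Socs7-202 held 13.1% in replicate 2 and 36.6% in replicate 1, and Socs6-201 held 41.7% and 23.5%. By isoform percent the leading transcript of Socs6 differed between the libraries. By counts Socs6-201 led in both, with 1323.64 in replicate 2 and 613.12 in replicate 1, against 381.55 and 340.03 for Socs6-203.

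**Figure D4:**
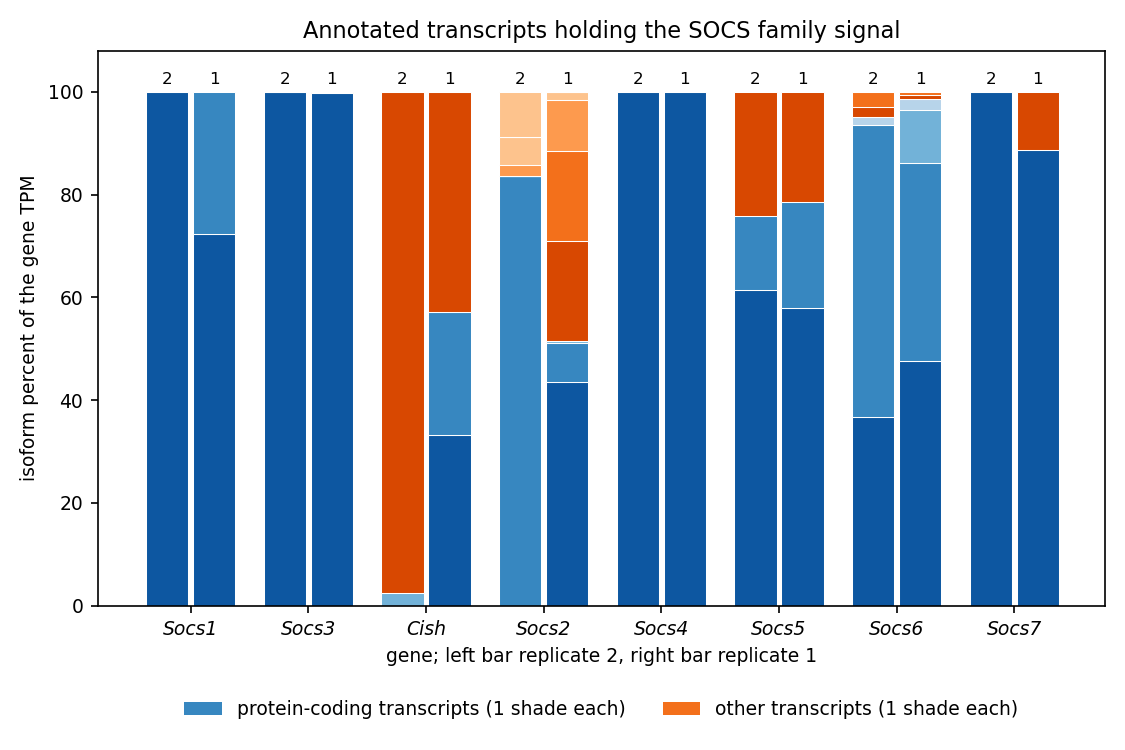
Isoform percent (transcript TPM as a percentage of gene TPM) for the 8 SOCS genes, with replicate 2 as the left bar and replicate 1 as the right bar; blue shades are protein-coding transcripts and orange shades all others. Coding transcripts hold 2.51% of Cish in replicate 2 and 57.18% in replicate 1, while Socs3 and Socs4 lie in 1 coding transcript in both.

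Of the ubiquitin ligase that the SOCS box recruits, all 6 listed genes were at 1 TPM or more. The list had a median level of 9.93 TPM and a median log2 difference of -0.05 (0.24 without centring). After centring 1 gene was lower over 2-fold and 0 higher, while Cul5 was just past 2-fold higher without it (1.001). Among all genes tested 4.51% were lower and 2.78% higher by over 2-fold, the shares to set beside each list count over 2-fold below. Eloc (elongin C) had 26.86 TPM in replicate 2, against 19.59 TPM in replicate 1, Rbx1 (a RING subunit) 22.06 and 21.38 TPM, and Cul5 (cullin 5) 14.27 and 6.63 TPM. The gene lower by over 2-fold was Elob (elongin B), with 4.80 TPM in replicate 2, against 14.02 TPM in replicate 1. Its difference of -1.66 rests on 33 and 120 counts. Of 26 other SOCS box genes, 12 were at 1 TPM or more and 6 were at 0 in both libraries. None of the 12 differed by over 2-fold after centring. Before it Asb2 was higher in replicate 2 (1.25), on 16 counts in replicate 2 and 14 in replicate 1. Wsb1 led them with 155.28 TPM in replicate 2, against 154.72 TPM in replicate 1, above every SOCS gene, followed by Wsb2 (27.71 and 26.54 TPM) and Asb13 (10.05 and 9.31 TPM).

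The kinases and factors that SOCS proteins restrain had higher median levels than the family, 33.6 TPM for the JAK kinases and 27.5 TPM for the STAT factors against 5.94 TPM, though single members of both lists were below Socs3, Socs4 and Socs6. All 4 JAK kinases were at 1 TPM or more, with a median log2 difference of -0.69 (-0.40 without centring), all 4 lower in replicate 2 after centring, though Jak1 was not before it, and none by over 2-fold. After centring 6476 of the 12952 genes tested were lower by any amount. Tyk2 had 38.02 TPM in replicate 2, against 56.71 TPM in replicate 1, Jak2 32.51 and 38.70 TPM, and Jak1 32.95 and 30.28 TPM. Of 7 STAT genes, 6 were at 1 TPM or more, with a median difference of -0.59 (-0.30 without centring) and none past 2-fold. Stat2, a factor of interferon signalling, had 210.3 TPM in replicate 2, against 274.92 TPM in replicate 1, and Stat6, the factor of IL-4 signalling, had 52.46 and 38.30 TPM.

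Of 22 cytokine receptor genes of the pathway, 15 were at 1 TPM or more and 3 were at 0 in both libraries. Their median log2 difference was -0.08 (0.21 without centring and 0.06 in the second table), and none differed by over 2-fold. Il2rg, the common gamma chain, had 97.8 TPM in replicate 2, against 108.13 TPM in replicate 1, Il10rb 89.04 and 76.91 TPM, and Csf3r 67.28 and 78.34 TPM. All 12 other inhibitors of the pathway were at 1 TPM or more, with a median difference of -0.10 (0.19 without centring), 1 lower over 2-fold and 0 higher. Ptprc, the phosphatase CD45, had 407.09 TPM in replicate 2, against 259.64 TPM in replicate 1. Usp18, an inhibitor of interferon receptor signalling, had 58.48 and 94.68 TPM, a difference of -0.97. The inhibitor past 2-fold was Ptpn6, the phosphatase SHP-1, with 44.75 TPM in replicate 2, against 80.07 TPM in replicate 1, at -1.11, and it was within 2-fold before centring (-0.83).

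STAT-driven target genes, the class to which Socs1, Socs3 and Cish are usually counted, had 13 of 14 genes lower in replicate 2 after centring, among them Mcl1, which was higher before it. Among all 12952 genes tested, 6476 were lower by any amount, a share that centring fixes. Of the 14, 6 were lower over 2-fold and 1 was higher, with a median log2 difference of -0.87 and a median level of 102.1 TPM, beside 4.51% lower and 2.78% higher among all genes tested. Without centring 3 of the 6 stayed past 2-fold, and the median was -0.58. Irf7, an interferon-induced transcription factor, had 249.28 TPM in replicate 2, against 535.01 TPM in replicate 1, a difference of -1.39. Cxcl10, a chemokine, had 166.99 and 432.87 TPM (-1.66), and Isg15, a ubiquitin-like modifier, had 86.79 and 273.37 TPM (-1.93). Mcl1, a survival factor, was close to the median gene, at 285.8 TPM in replicate 2, against 238.18 TPM in replicate 1 (-0.03). Fos, an immediate early gene, was the exception, with 78.27 TPM in replicate 2, against 20.82 TPM in replicate 1 (1.57). Socs1 at -1.73 and Socs3 at -1.48 were lower in replicate 2, as 13 of the 14 targets were after centring. Cish at 0.44 was not. In the second table Cish was at -0.40 after centring, though higher in replicate 2 before it. RNA input (500 ng in replicate 2, 1 µg in replicate 1) moved with all of these values, and its part in them was not tested.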

How the data were processed

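The comparison had 2 libraries of 1 group. The authors deposited expected counts (unnormalised read estimates, not always whole) and TPM for genes and transcripts, per the file headers, with isoform percent for transcripts and lower and upper TPM bounds whose level is not stated. A second deposited transcript table has its own estimated counts and TPM values. Assembly mm10 and GENCODE M21 come from the text files deposited with the samples; aligner, quantifier, versions and strand have no entry in the sources read, so reads of opposite-strand genes may not be separated. Entries without an Ensembl gene (26345, with 0.434% of counts in replicate 2 and 0.581% in replicate 1) were left out.

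Differences were log2((TPM + 1) of replicate 2 over replicate 1), centred on the median gene at a mean of 1 TPM or more; a pseudocount of 1 understates differences of low genes. Count ratios, taken without pseudocount or centring, carry exact 95% binomial intervals. The members, lists and contrast were chosen with earlier results of these data known. Named genes were the 8 members, the 3 highest of each list with up to 3 past 2-fold on 100 counts, the 3 nearest genes to Socs1 and Socs3, and transcripts at 10 isoform percent or more. A gene that this rule names is not reported here. Alternatives were pseudocounts of 0.1 and 5, 3 gene filters, no centring, TMM (edgeR 4.0.16, R 4.3.3), CPM, the second table, posterior means, rescaled TPM and leaving out a replicate. Python 3.11.15 was used. The computation of differences was tested on simulated data.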

Additional observations from a re-analysis of the deposited data

How the results depend on the processing

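The contrast of Socs1 and Socs3 with the other 6 members, -1.84 as reported, cannot be moved by the 3 gene filters or by centring, which shift all members alike. Under the other alternatives it kept its direction. It moved to -1.17 with a pseudocount of 5, to -2.08 with TMM-scaled counts and to -1.04 in the other transcript table. There the same pseudocount of 1 was added to mean levels that were lower for all members but Socs2. Mean levels there were 1.47 TPM for Socs1 and 12.2 TPM for Socs3. The part of the pseudocount in that move was not tested. The count of members lower over 2-fold was 2, and 1 with a pseudocount of 5, where Socs1 was at -0.99. The count higher over 2-fold was 0, and 1 with a pseudocount of 0.1 (Cish, 1.06) and without centring (Socs6, 1.02). It was also 1 with TMM-scaled counts (Cish, 1.52) and with CPM (Cish, 1.52, with Socs6 at 0.94). Both of these add a pseudocount of 1 to CPM, and the CPM without TMM was centred as well. The count ratios given with each gene have neither step, and there Cish was at 2.09 and Socs6 at 1.06. Socs1 ranged from -2.11 to -0.99 and Socs3 from -1.59 to -1.01. Over these alternatives Cish ranged from -0.40, in the other table after centring, to 1.52. Before centring Cish was higher in replicate 2 in that table too, at 1.08 TPM, against 0.132 TPM in replicate 1. Its sign in that table thus depends on centring. Socs7 was at 0.03 without centring, and Socs5 at -0.19 in the other table and -0.02 by posterior mean. Members at 1 TPM or more numbered 6 as reported, 7 without replicate 1, 6 without replicate 2 and 8 by posterior mean.

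The medians of the ligase partners, receptors, other inhibitors and other SOCS box genes were 0.24, 0.21, 0.19 and 0.06 without centring, so their sign depends on it, as does that of the receptors on the table (0.06 in the other one). The median gene itself lay at 0.29 before centring, at 0.10 in CPM, at -0.02 after TMM scaling and at 1.28 in the other table. No paired analysis was possible because there was 1 group. Depth limits Socs2 and Cish, whose transcripts rest on few reads, and with 1 library on each side nothing separates a difference between cultures from one between libraries.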
